A study of Mus musculus with 6 samples.

Results

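Globin and red cell transcripts were described in RNA-seq libraries of sorted lung endothelial cells (EC), the cells that line blood vessels. The genes were Hba-a1 and Hba-a2 (adult alpha globin), Hbb-bs and Hbb-bt (adult beta globin), Alas2 and Slc4a1, and their rows were found in the expression table by gene symbol. They are 6 of 12623 genes and 7 of 17241 transcript rows, since Alas2 had 2 rows.

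EC came from the lungs of C57BL/6N mice in both groups, either infant mice of 8 to 10 days (3 libraries) or young adult mice of 8 to 12 weeks (3 libraries). Living cells that carried CD31 and CD34 were collected after depletion and gating against PTPRC (leukocytes), LYVE1 and PDPN (lymphatic EC) and LY76, the TER-119 antigen of maturing red cells. The gate was thus directed against red cells in both groups. Values are RPKM, that is, read numbers scaled for the length of the transcript and for the mapped reads of the library, which allow levels of different genes to be set side by side. The cDNA had been amplified from small amounts of RNA. The endothelial genes Pecam1 (309.8 to 657.8 RPKM), Cdh5 (213.8 to 316.9) and Cd34 (254.4 to 500.6) were high in all 6 libraries. The methods name female mice. The Y-linked gene Ddx3y was at 16.5 to 21.9 RPKM in the infant libraries, whereas all young adult libraries listed it at 0.0, so that sex and age cannot be told apart here.

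Hemoglobin is a tetramer of alpha and beta globin chains, each of which holds a heme group that binds oxygen. Red cell precursors build up globin mRNA to very high levels, together with ALAS2, the erythroid enzyme of the first step of heme synthesis, and band 3, the anion exchanger of the red cell membrane that Slc4a1 encodes. Reticulocytes, the youngest red cells in the blood, have lost their nucleus but still carry this RNA.

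The alpha globin genes are near-identical copies of each other, and so are the beta globin genes. The coding sequences of Hba-a1 and Hba-a2 are 429 bases long and differ at 1 position (99.8% identity), and those of Hbb-bs and Hbb-bt are 444 bases long and also differ at 1 position (99.8%). Positions are counted from 1 at the first base of the start codon. The single differences are C381T, from Hba-a1 to Hba-a2, and C417T, from Hbb-bs to Hbb-bt. The stretches around them are shown because they are the coding bases by which a read can be told apart, with the differing base in capitals.
Hba-a1, coding bases 351 to 408: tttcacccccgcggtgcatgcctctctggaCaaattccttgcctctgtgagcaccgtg
Hba-a2, coding bases 351 to 408: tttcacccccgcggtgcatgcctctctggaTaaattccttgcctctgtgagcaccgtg
Hbb-bs, coding bases 387 to 444: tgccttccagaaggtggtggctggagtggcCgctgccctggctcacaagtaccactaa
Hbb-bt, coding bases 387 to 444: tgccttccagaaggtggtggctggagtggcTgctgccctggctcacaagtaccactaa

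Of all 100-base windows, the length of a read, 56.5% of those in the Hba-a1 transcript also occur in Hba-a2, and 62.6% of those in Hbb-bs also occur in Hbb-bt. How such reads were assigned is not given in the sources used here, so the value of a single copy is uncertain, and sums over each pair are given below as well.

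The genes lie on chromosomes 7, 11 and X and moved together in the values that follow, and the 250 bases before the start site of each adult globin type and of Alas2 are shown for that reason (RefSeq, GRCm38.p6, 5′ to 3′ on the strand of the gene). A sequence was found for 5 of the 6 genes. That of Hba-a2 shares an unbroken run of 247 bases with that of Hba-a1 and is not repeated. Capitals mark matches on either strand to 4 motifs, which are the GATA motif known for GATA1 (GATA with A or T before it and A or G after it), the CACCC motif known for KLF1, the CCAAT box and the TATAA box.
Hba-a1, chr11:32283422-32283671, plus strand: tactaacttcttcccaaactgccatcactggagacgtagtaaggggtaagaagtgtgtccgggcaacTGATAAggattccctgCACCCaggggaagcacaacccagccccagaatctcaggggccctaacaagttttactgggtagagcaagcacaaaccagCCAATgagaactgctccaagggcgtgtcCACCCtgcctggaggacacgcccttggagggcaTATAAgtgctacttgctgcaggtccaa
Hbb-bs, chr7:103827929-103828178, minus strand: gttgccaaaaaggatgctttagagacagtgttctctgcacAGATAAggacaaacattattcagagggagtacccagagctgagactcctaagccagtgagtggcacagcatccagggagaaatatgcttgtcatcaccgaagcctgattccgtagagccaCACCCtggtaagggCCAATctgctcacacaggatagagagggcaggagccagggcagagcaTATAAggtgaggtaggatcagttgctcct
Hbb-bt, chr7:103813924-103814173, minus strand: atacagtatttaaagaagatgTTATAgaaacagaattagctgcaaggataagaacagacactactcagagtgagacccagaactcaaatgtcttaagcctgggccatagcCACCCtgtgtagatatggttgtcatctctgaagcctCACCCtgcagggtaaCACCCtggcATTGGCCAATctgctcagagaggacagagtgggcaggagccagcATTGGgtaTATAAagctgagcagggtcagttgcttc
Alas2, chrX:150547167-150547416, plus strand: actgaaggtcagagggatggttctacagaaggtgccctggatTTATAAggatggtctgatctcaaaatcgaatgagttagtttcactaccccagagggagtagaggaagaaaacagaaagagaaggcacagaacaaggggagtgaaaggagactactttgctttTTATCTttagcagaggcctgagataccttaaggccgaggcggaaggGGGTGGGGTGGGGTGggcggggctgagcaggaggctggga

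In this window the GATA motif began 183 bases before the start of Hba-a1, 210 before Hbb-bs and, on the opposite strand, 86 before Alas2, and there was no match before Hbb-bt. CACCC was found before all 4 genes, 3 times in Hbb-bt and 3 times in Alas2, where the copies lie on the opposite strand. CCAAT lay 88 bases before Hba-a1, 76 before Hbb-bs and 75 before Hbb-bt, where further matches on the opposite strand lay at 80 and 36 bases, and it had no match before Alas2. TATAA lay 27, 29 and 28 bases before Hba-a1, Hbb-bs and Hbb-bt, the last with another match on the opposite strand at 229 bases, whereas the Alas2 matches lay at 207 and 208 bases and overlap each other. Among all 32851 promoter windows of this length, 26.5% held a GATA motif, 52.0% CACCC, 33.8% CCAAT and 22.8% TATAA. These matches describe the letters of the window and nothing more.

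All 6 genes were lower in young adult than in infant EC, with no overlap between the groups. The globin genes were among the most abundant transcripts of the infant libraries and remained well detected in the young adult libraries, Alas2 fell to a few RPKM, and Slc4a1 fell to the rounding step of the table. All 6 were called by limma on log2(RPKM + 1), at an adjusted p under 0.05 (Benjamini-Hochberg over all genes tested) and past the fold threshold of the study. Over all 12458 genes tested, 8.10% were called lower and 3.33% higher, 27.1% were lower without overlap, 16.4% higher without overlap, and 58.6% had a log2 fold change below 0. Of all calls 29.1% were higher in young adult EC, and 46.5% after quantile normalization. In sorted bulk samples, fewer cells of a type and less RNA per cell cannot be told apart.

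Hba-a1 (NM_008218, chromosome 11, 32283672 to 32284486) was at 8793.1, 2555.2 and 23818.8 RPKM in infant replicates 1, 2 and 3 and at 247.7, 416.9 and 359.6 RPKM in young adult replicates 1, 2 and 3. Infant replicate 3 was the highest and infant replicate 2 the lowest of the infant libraries, yet the latter was still 6.13-fold above the highest young adult library. The mean fell from 11722 ± 10930 to 341 ± 86.1 RPKM (SD, n = 3 each), which is 34.3-fold. On the log2(RPKM + 1) scale Hba-a1 fell by 4.60 (SE 0.71, limma adjusted p 0.00543).

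Hba-a2 (NM_001083955, chromosome 11, 32296492 to 32297310), the downstream copy in the same cluster, was at 8366.1, 2426.1 and 22644.4 RPKM in the infant and at 237.2, 395.4 and 340.3 RPKM in the young adult libraries. The libraries stood in the same order as for Hba-a1. The means were 11146 ± 10392 and 324 ± 80.3 RPKM (SD, n = 3 each) and gave a log2 fold change of -4.60 (SE 0.71, limma adjusted p 0.00541).

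Hbb-bs (NM_001201391, chromosome 7, 103826523 to 103827928) was at 7148.7, 2516.0 and 18042.5 RPKM in the infant and at 181.1, 291.7 and 256.9 RPKM in the young adult libraries. The lowest infant library was 8.63-fold above the highest young adult library. The mean fell from 9236 ± 7971 to 243 ± 56.6 RPKM (SD, n = 3 each), 38.0-fold, with a log2 fold change of -4.84 (SE 0.63, limma adjusted p 0.00312).

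Hbb-bt (NM_008220, chromosome 7, 103812524 to 103813923) was at 6037.2, 2125.2 and 15195.2 RPKM in the infant and at 154.9, 242.8 and 215.0 RPKM in the young adult libraries. It was the lowest of the 4 globin genes in every library, and the order of the libraries was again the same. The log2 fold change was -4.85 (SE 0.63, limma adjusted p 0.00307), from a mean of 7786 ± 6708 to 204 ± 44.9 RPKM (SD, n = 3 each).

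Alas2 (chromosome X, 150547417 to 150570622) was at 72.5, 29.0 and 149.5 RPKM in the infant and at 1.3, 3.6 and 1.6 RPKM in the young adult libraries by the row NM_009653. The second row, NM_001102446, held 70.5, 28.3 and 145.8 RPKM in the infant and 1.3, 3.5 and 1.6 RPKM in the young adult libraries, so both rows gave the same picture. The mean fell from 83.7 ± 61.0 to 2.17 ± 1.25 RPKM (SD, n = 3 each), 38.6-fold, and the lowest infant library was 8.06-fold above the highest young adult library. The log2 fold change was -4.52 (SE 0.54, limma adjusted p 0.00221).

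Slc4a1 (NM_011403, chromosome 11, 102348820 to 102365281) was at 4.5, 1.9 and 5.8 RPKM in the infant and listed at 0.0, 0.1 and 0.1 RPKM in the young adult libraries. The young adult values equal 0 or 1 rounding step of 0.1, so no ratio of the means is given. The log2 fold change was -2.16 (SE 0.29, limma adjusted p 0.00339), and it ran from -4.58 with a pseudocount of 0.1 to -0.81 with a pseudocount of 5. Slc4a1 was the single gene of the 6 that lost its call under an alternative, at an adjusted p of 0.0574 when limma tested against the fold threshold itself.

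**Figure D1:**
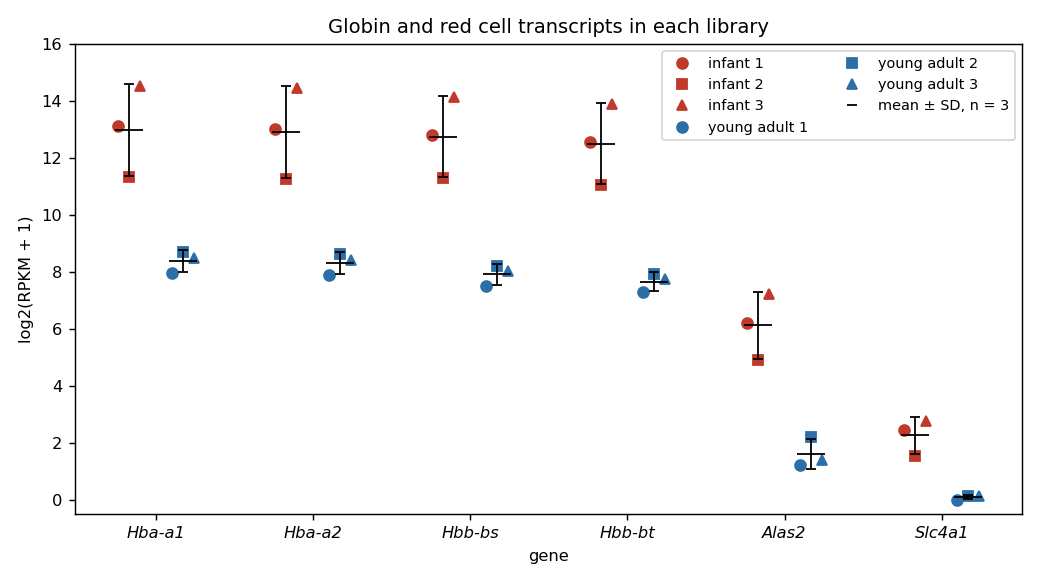
Level of each gene as log2(RPKM + 1) in the 3 infant (red) and 3 young adult (blue) libraries, with symbols for the replicate number and the mean ± SD (n = 3) in black. All infant points lie above all young adult points for each gene, and infant replicate 3 is above replicate 1 and replicate 2 in all 6.

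In order of level, Hba-a1, Hba-a2, Hbb-bs and Hbb-bt held ranks 1 to 4 of 12623 genes in infant replicates 1 and 3 and ranks 4, 6, 5 and 7 in infant replicate 2. In the young adult libraries the globin genes held ranks from 62 to 240. Alas2 ranked 567, 1837 and 236 in the infant and 10026, 7610 and 9820 in the young adult libraries. The difference in level between neighbouring globin genes was far smaller than the spread among infant libraries.

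The summed RPKM of the 4 globin genes was 30345.1, 9622.5 and 79700.9 in the infant and 820.9, 1346.8 and 1171.8 in the young adult libraries. The lowest infant sum was 7.14-fold above the highest young adult sum. As a share of the RPKM total of its library, globin fell by 4.62 on the log2 scale (24.6-fold, infant above young adult in all libraries), at an exact two-sided permutation p of 0.1, the smallest that 3 against 3 libraries can give. Because an RPKM is relative to the whole library, globin takes room from other transcripts. Had each RPKM total been kept without the globin genes, other infant values would be multiplied by 1.12, 1.04 and 1.31. The factor was 1.0 in the young adult libraries. In an RPKM total, short transcripts weigh more than in reads, and the share of reads held by globin is unknown here. All 6 genes were called when the libraries were rescaled to equal RPKM totals without the globin genes.

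The spread among infant libraries differed from gene to gene. Infant replicate 3 exceeded infant replicate 2 by 9.32-fold for Hba-a1 and 9.33-fold for Hba-a2, by 7.17-fold and 7.15-fold for Hbb-bs and Hbb-bt, by 5.16-fold for Alas2 and by 3.05-fold for Slc4a1. Infant replicate 1 exceeded replicate 2 by 3.44-fold, 3.45-fold, 2.84-fold, 2.84-fold, 2.5-fold and 2.37-fold for the genes in that order. The steps thus became smaller from alpha globin to beta globin, Alas2 and Slc4a1 in both libraries. The order replicate 3 over 1 over 2 was found in all 6 genes and in 15.6% of all genes tested. Young adult libraries spread less, by 1.57-fold to 1.68-fold between the lowest and the highest for the globin genes and by 2.77-fold for Alas2, and replicate 2 was the highest.

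**Figure D2:**
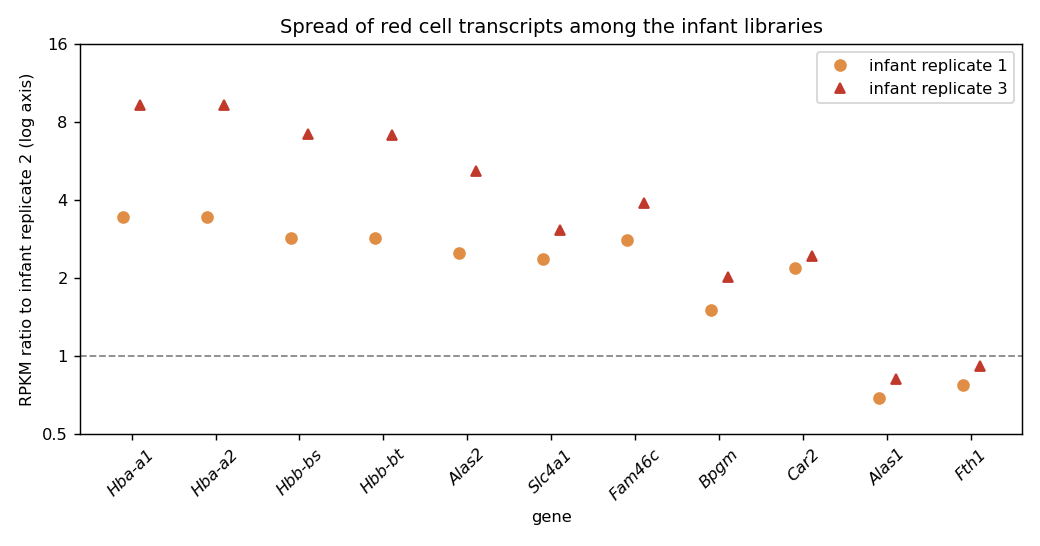
RPKM of infant replicates 1 (orange circles) and 3 (red triangles) divided by that of infant replicate 2, on a log axis, for the 6 genes, 3 red cell genes that were called and Alas1 and Fth1, which were not. Among the 6 genes the ratios of replicate 3 run from 9.33 for Hba-a2 to 3.05 for Slc4a1 and those of replicate 1 from 3.45 to 2.37, while Alas1 and Fth1 lie below the dashed line at 1. Uncalled list genes that are not drawn lie on both sides of 1, with Fech, Gpx1 and Nfe2 above it in both ratios.

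Ratios within a library compare the genes with each other. They do not depend on how the library was scaled, apart from the 0.1 RPKM added to both sides, which weighs on low values such as Slc4a1. Alpha over beta globin (sums of both copies) was 1.30, 1.07 and 1.40 in the infant and 1.44, 1.52 and 1.48 in the young adult libraries. The groups did not overlap. The ratio was 1.19-fold higher in young adult libraries, a log2 difference of 0.25 (0.32 ± 0.20 and 0.57 ± 0.04, SD, n = 3 each), at an exact two-sided permutation p of 0.1, the smallest possible, and 0.5 after adjustment over 5 ratios. Without infant replicate 2, the library with the lowest ratio, the log2 difference was 0.14.

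The copies of each pair kept a fixed ratio. Hba-a1 over Hba-a2 was 1.05 in all 3 infant libraries, while young adult libraries gave 1.04, 1.05 and 1.06 (exact permutation p 1.0). Hbb-bs over Hbb-bt was 1.18, 1.18 and 1.19 in the infant and 1.17, 1.20 and 1.19 in the young adult libraries (exact permutation p 0.9). The shared bases shown above limit how far these ratios tell the copies apart.

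Alas2 per 1000 RPKM of globin was 2.39, 3.02 and 1.88 in the infant and 1.71, 2.75 and 1.45 in the young adult libraries. The groups overlapped, with a log2 difference of -0.33 (exact two-sided permutation p 0.4, adjusted 1.0), and the sign turned to 0.19 when 1 RPKM instead of 0.1 was added to both sides. Slc4a1 per 1000 RPKM of globin, with 0.1 RPKM added, was 0.152, 0.208 and 0.074 in the infant and 0.122, 0.148 and 0.171 in the young adult libraries. This log2 difference was 0.13 (exact two-sided permutation p 0.9, adjusted 1.0), and it was -0.29 without infant replicate 3 and -0.69 with nothing added. A difference in these ratios between the groups was therefore not detectable, and the design could not have reached a p under 0.1.

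**Figure D3:**
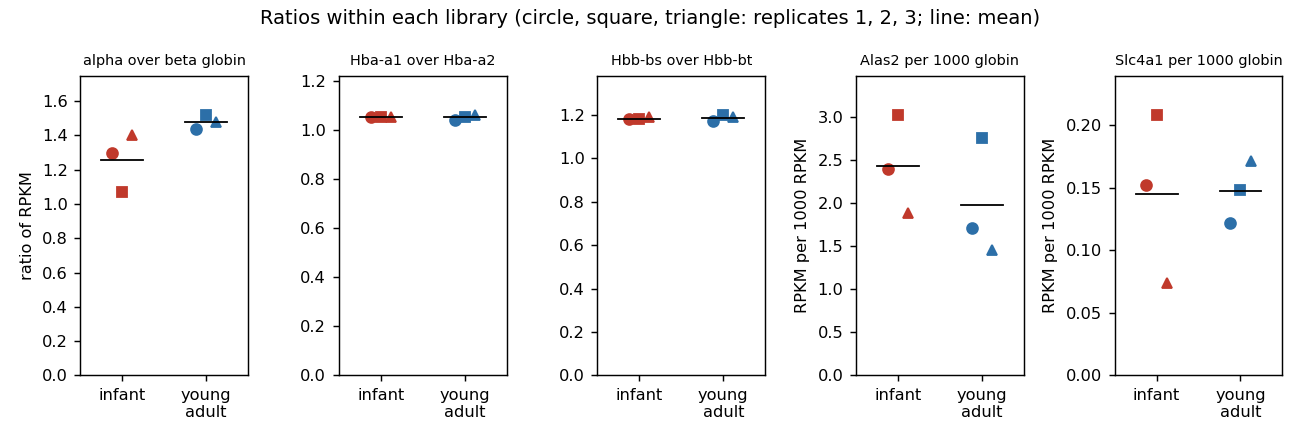
Ratios of RPKM within each of the 3 infant (red) and 3 young adult (blue) libraries, each axis starting at 0, with symbols for the replicate number and a line at the mean. Alpha over beta globin reaches at most 1.40 in infant and at least 1.44 in young adult libraries, the pair ratios lie flat, and the Alas2 and Slc4a1 ratios overlap.

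Other red cell genes were read in 6 lists of 107 genes, of which 85 were measured and tested. In all, 16 were called lower and 2 higher in young adult EC. The lists differed widely in how many members passed, and each share can be set beside the 8.10% of all genes called lower and a log2 fold change of -0.07 in the median gene tested. The erythroid factors Gata1 and Klf1, the alpha chain chaperone Ahsp and the embryonic beta type globins were not analysed here.

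Among other globins, 2 of 6 measured genes were called lower (median log2 fold change -0.85). Hba-x, the embryonic zeta globin gene, was at 3.7, 0.8 and 9.1 RPKM in the infant and at 0.1, 0.3 and 0.1 RPKM in the young adult libraries. It stood at 0.216, 0.161 and 0.196 per 1000 RPKM of adult alpha globin in the infant and at 0.206, 0.369 and 0.143 in the young adult libraries, values that overlap and of which the latter rest on 1 to 3 rounding steps. Cygb, which encodes cytoglobin, a globin of fibroblast-like cells rather than red cells, was at 9.0, 0.9 and 6.1 RPKM in the infant and at 0.3, 0.5 and 0.4 RPKM in the young adult libraries. Both calls were lost in 5 of the 6 fits that left out a library, all but that without infant replicate 2. The fibroblast marker Pdgfra was at 87.2, 2.6 and 66.8 RPKM in the infant and 0.2, 0.6 and 0.5 RPKM in the young adult libraries. It was likewise lowest in infant replicate 2 among infant libraries, as were all other measured fibroblast markers but Dcn and Lum. Dcn (7.6, 19.9 and 8.0 RPKM in infant replicates 1, 2 and 3) and Lum (4.1, 14.4 and 4.7 RPKM) were highest there. The part of fibroblasts in the value of Cygb was not tested.

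In the red cell membrane and skeleton list 6 of 15 measured genes were called lower (median log2 fold change -0.61). Rhag and Rhd, which encode proteins of the Rh complex, fell by 1.07 and 1.06 on the log2 scale from means of 1.33 and 1.63 RPKM. Ermap, an erythroblast membrane protein gene, fell by 0.92, and Add2, an adducin gene of the membrane skeleton chosen after its values were seen, was at 1.0, 0.5 and 1.1 RPKM in the infant and at 0.0 RPKM in each young adult library. Gypc, whose product glycophorin C is made in many cell types, was at 29.1, 13.8 and 26.6 RPKM in the infant and at 7.3, 7.3 and 9.4 RPKM in the young adult libraries (log2 fold change -1.37, limma adjusted p 0.0107). Without infant replicate 3, young adult replicate 1 or young adult replicate 2 the count was 3, 3 and 2. Rhd lost its call in each of these fits, Gypc in the fits without either young adult library, and Ermap without young adult replicate 2. Without infant replicate 3, Ermap was not tested, since its remaining values (0.8 and 0.9 RPKM in infant replicates 1 and 2) stayed under the filter of 1 RPKM.

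Among red cell enzymes and late erythroid transcripts, 5 of 23 measured genes were called lower (median log2 fold change -0.32). Fam46c (now Tent5c), which encodes a poly(A) polymerase, was at 7.0, 2.5 and 9.7 RPKM in the infant and at 0.2 RPKM in each young adult library (log2 fold change -2.48, limma adjusted p 0.00452). Bpgm, which makes 2,3-bisphosphoglycerate and so sets the oxygen affinity of hemoglobin, fell from 59.2, 39.2 and 78.9 RPKM to 13.5, 17.5 and 21.6 RPKM (-1.67, limma adjusted p 0.00549).

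Car2, a carbonic anhydrase gene of red cells and of other cell types, was at 357.2, 163.4 and 397.9 RPKM in the infant and at 112.2, 123.0 and 100.4 RPKM in the young adult libraries (log2 fold change -1.35, limma adjusted p 0.0205). Trim10, a gene of terminal erythroid maturation, was at 1.2, 0.5 and 2.7 RPKM in the infant and at 0.0, 0.1 and 0.0 RPKM in the young adult libraries (-1.16, limma adjusted p 0.0299). Both of these calls were lost in 5 of the 6 fits that left out a library, all but that without infant replicate 2. The count of the list fell to 3 without infant replicate 1, infant replicate 3, young adult replicate 1 or young adult replicate 2. Nprl3, whose introns hold the distal enhancers of the alpha globin cluster, was chosen after its values were seen and lay between 10.7 and 13.1 RPKM in all libraries (log2 fold change -0.15, limma adjusted p 0.263).

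**Figure D4:**
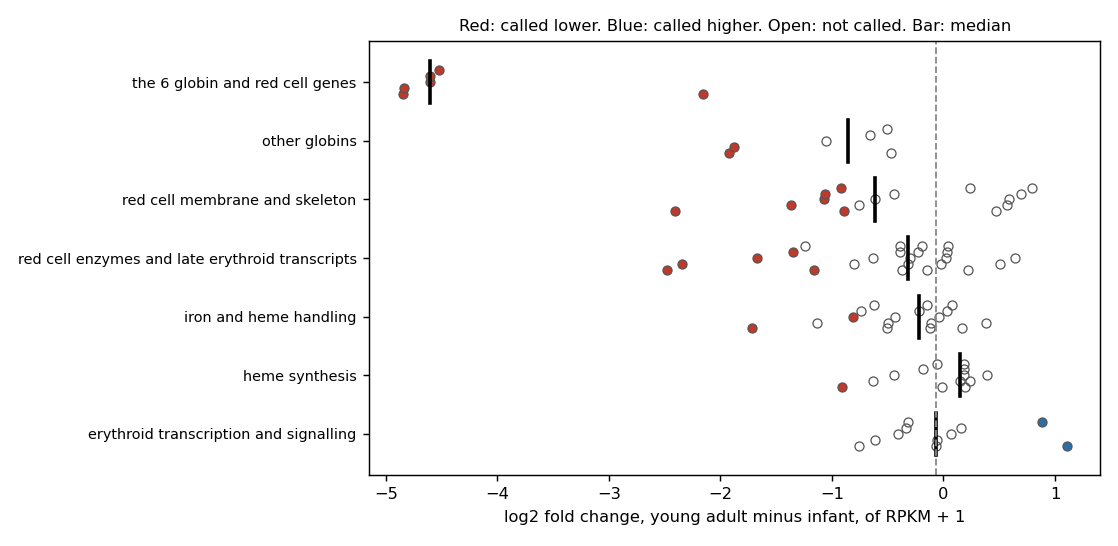
Log2 fold change (young adult minus infant, of RPKM + 1) of each tested gene, by list, filled where called (red lower, blue higher) and open where not, with a bar at the median of the list and a dashed line at the median of all genes (-0.07). The 6 globin and red cell genes lie from -4.85 to -2.16, and the medians of the other lists lie between -0.85 and 0.15.

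The heme pathway outside Alas2 moved little. In the heme synthesis list 1 of 13 genes was called lower (median log2 fold change 0.15). This was Slc25a39, a mitochondrial carrier that heme synthesis needs, at 32.7, 24.2 and 35.1 RPKM in the infant and 13.3, 15.7 and 18.3 RPKM in the young adult libraries (-0.91, limma adjusted p 0.00959), and its call was lost without young adult replicate 1. Alas1, the ALAS enzyme of other cells, was at 44.2, 64.2 and 52.5 RPKM in the infant and 56.3, 53.8 and 48.6 RPKM in the young adult libraries (-0.01, limma adjusted p 0.982), with a sign that turned under 4 alternatives. Alas2 over Alas1 was 1.64, 0.452 and 2.85 in the infant and 0.0231, 0.0669 and 0.0329 in the young adult libraries. Fech, which inserts the iron into heme, was not called at 17.7, 12.2 and 18.0 against 9.5, 12.1 and 12.7 RPKM (-0.44, limma adjusted p 0.0953).

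In the iron and heme handling list 2 of 17 genes were called lower (median log2 fold change -0.22). Trf, which encodes transferrin, the secreted iron carrier and not a red cell product, was at 92.7, 81.7 and 96.5 RPKM in the infant and at 15.7, 26.4 and 45.5 RPKM in the young adult libraries (-1.72, limma adjusted p 0.0106). Tfrc, the transferrin receptor gene by which iron enters red cell precursors and dividing cells, was at 2.4, 2.3 and 3.2 RPKM in the infant and at 0.9, 0.9 and 1.4 RPKM in the young adult libraries (-0.81, limma adjusted p 0.011). The call of Trf was lost without young adult replicate 2, and that of Tfrc without infant replicate 3, young adult replicate 1 or young adult replicate 2.

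In the list of erythroid transcription and signalling 0 of 11 measured genes were called lower and 2 higher (median log2 fold change -0.07). Kit, a receptor of blood progenitors that lung capillary EC also carry, rose from 107.7, 95.7 and 79.3 RPKM to 223.9, 243.1 and 154.9 RPKM (1.11, limma adjusted p 0.00864). Bcl2l1, a survival gene of many cell types, rose by 0.88 on the log2 scale (limma adjusted p 0.0451), a call lost in 5 of the 6 fits that left out a library, all but that without infant replicate 2. Epor, the erythropoietin receptor gene, was at 1.1, 0.8 and 0.8 RPKM in the infant and 0.3, 0.5 and 0.5 RPKM in the young adult libraries and was not called (-0.41, limma adjusted p 0.0813, and 0.07 after quantile normalization).

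Over the 6 libraries the log2(RPKM + 1) values of the 6 genes correlated with each other at a Pearson r of at least 0.991, as a description of points that share libraries and scaling. Of 444 tested genes outside them with an SD of at least 1, the 8 most like their mean included Gap43 (r 0.9959), Myl9 (0.9940), Fam46c (0.9936), Kcnk3 (0.9929), Cpt1c (0.9915) and Lrrc61 (0.9914), of which Fam46c is in the red cell lists. Myl9, a myosin light chain gene of contractile cells, was at 47.0, 20.7 and 60.3 RPKM in the infant and at 3.8, 4.4 and 5.2 RPKM in the young adult libraries. Gap43, known from growing axons, was at 6.7, 4.6 and 9.2 RPKM in the infant and at 0.9, 1.4 and 1.0 RPKM in the young adult libraries.

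Markers of other cell types were summed in each library, and their part in the results was not tested. Their counts can be set beside all genes tested, of which 8.10% were called lower and 3.33% higher. Of all genes tested, 27.1% were lower without overlap and 58.6% had a log2 fold change below 0. Fibroblast markers (12 of 13 called lower) ranged from 384 to 1378 RPKM in the infant and from 15.2 to 30.7 RPKM in the young adult libraries, with Pdgfra at 2.6 to 87.2 and 0.2 to 0.6 RPKM. Mural cell markers (13 of 14 called lower) ranged from 125 to 318 RPKM and from 18.4 to 27.0 RPKM. These sums were lowest in infant replicate 2 among infant libraries, as were the globin genes. The mural sums of 281, 125 and 318 RPKM in infant replicates 1, 2 and 3 stood in the same order as the globin genes. The single mural markers differed, with Cox4i2, Higd1b, Trpc6 and Notch3 lowest in infant replicate 1 and the other measured ones in infant replicate 2. The fibroblast sum was highest in infant replicate 1. Of the leukocyte markers 15 of 16 had a log2 fold change below 0 (median -1.31), 10 were lower without overlap and 6 were called lower. Their sums overlapped, at 387 to 597 and 165 to 655 RPKM, and were mostly Lyz2, at 275.3 to 467.1 and 134.3 to 515.5 RPKM, with Ptprc at 3.0 to 7.0 and 0.2 to 1.8 RPKM. Platelet markers (0 of 5 called by limma) overlapped at 5.5 to 18.2 and 8.7 to 17.3 RPKM, with Pf4 at 1.5 to 7.5 and 3.6 to 7.0 RPKM. Epithelial markers (5 of 14 called lower and 1 higher) ranged from 6574 to 11502 and from 1835 to 8424 RPKM. Endothelial markers (2 of 16 called higher) ranged from 3804 to 5544 RPKM in the infant and from 5886 to 6438 RPKM in the young adult libraries. Pdgfra, Ptprc and Pf4 were above 0 in every library. Epcam (epithelial) and Cspg4 (mural) were listed at 0.0 in young adult replicate 1, S100a8 (leukocyte) in young adult replicates 1 and 2 and S100a9 (leukocyte) in young adult replicate 2, and the other measured markers were above 0 throughout. Epcam was at 0.6 to 1.1 RPKM in the infant libraries. The order replicate 3 over 1 over 2 was found in 4 of 13 fibroblast, 3 of 14 mural and 5 of 16 leukocyte markers. It was found in 0 of 14 epithelial, 0 of 5 platelet and 0 of 16 endothelial markers, against 15.6% of all genes tested. In the red cell lists it held for 3 of 6 other globins, 3 of 13 heme synthesis and 6 of 17 iron and heme handling genes. It also held for 5 of 15 membrane and skeleton, 2 of 11 transcription and signalling and 8 of 23 enzyme and late erythroid genes.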

How the data were processed

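RNA was measured in 6 libraries, 3 per age, grouped by their titles. The authors aligned paired reads with STAR to mm10 and deposited RPKM values on RefSeq transcripts, rounded to 1 decimal. The version of STAR and the program that made the RPKM are not given in the sources used here. The table held 0 further value columns. The study states an average transcriptome coverage, but the depth of each library is unknown here, since no read counts were analysed, so no counting error is attached to single values. RPKM totals over genes were 275056 to 338740 in infant and 267437 to 295105 in young adult libraries.

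The row with the highest mean was kept for each gene, and symbols turned into dates (24 rows) were restored. limma 3.58.1 in R 4.3.3 was run on log2(RPKM + 1) with an intensity trend over all 12458 genes that reached an RPKM of 1 in any library, in place of the count test of the study, since the values are RPKM. A call needed a Benjamini-Hochberg adjusted p under 0.05 and a fold over 1.75. The pseudocount understates changes of low genes. Ratios were compared by exact two-sided permutation tests (scipy 1.17.1). The script was tested on simulated data. Nothing says that replicates within a group were separate animals, so p-values measure only the spread between these libraries.

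The 6 genes and all lists were chosen with earlier results of these data known. Named were the 6 genes, called list genes whose mean reached 1 RPKM in either group (up to 8 per list), 10 red cell genes chosen by role, and the 8 genes most like the 6. A few genes under this rule are counted in their lists but not reported here by name. Sequences and positions are those of RefSeq GRCm38.p6, with coordinates as in mm10, and coding sequences and shared windows were computed from GENCODE transcripts. No protein sequence was used. Alternatives were other pseudocounts, filters, scalings, variance models, fold rules, ratio offsets, transcript sums, a replicate block and leaving out each library.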

Additional observations from a re-analysis of the deposited data

How the results depend on the processing

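All 6 genes kept their direction in every alternative and were called in all but 1 (Slc4a1). Over all genes tested, 1424 were called, 578 with a pseudocount of 5, 176 when testing against the fold itself and 842 to 1874 without 1 library. A pseudocount of 0.1 gave 1957. Quantile normalization moved the log2 fold change of the median gene by 0.12 and gave 46.5% of calls higher instead of 29.1%.

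Counts called lower in the lists depended on the setting. Other globins (2) gave 0 with a pseudocount of 5, quantile normalization, robust eBayes, a replicate block or a test against the fold, 4 with array weights and 0 to 4 without 1 library. Heme synthesis (1) gave 0 with a pseudocount of 5, a test against the fold or a fold over 2, and 0 to 1 without 1 library. Iron and heme handling (2) gave 4 with a pseudocount of 0.1, 1 with a pseudocount of 5, median scaling, quantile normalization or a fold over 2, 0 in a test against the fold and 0 to 3 without 1 library. Membrane and skeleton (6) gave 2 with a pseudocount of 5, a mean RPKM of at least 1 or quantile normalization, 1 in a test against the fold and 2 to 7 without 1 library. Erythroid transcription and signalling (0) gave 1 after rescaling without globin and with array weights, and 0 to 1 without 1 library. Enzymes and late erythroid transcripts (5) gave 7 after rescaling without globin and with array weights, 0 in a test against the fold and 3 to 6 without 1 library. The cause was not tested.

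The log2 difference of Alas2 to globin turned to 0.19 with 1 RPKM added. That of Slc4a1 to globin turned to -0.69 with nothing added and ran from -0.29 to 0.46 without 1 library. Alas1 turned to 0.06 under median scaling and array weights, and ran from -0.13 to 0.13 without 1 library (the highest without infant replicate 2, and 0.05 when young adult replicate 3 was left out), and Epor to 0.07 under quantile normalization.

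Deviations from the group mean correlated at 0.0282, -0.11 and -0.0208 between same-numbered infant and young adult libraries. With 3 libraries per group, these values cannot decide whether replicate numbers pair the libraries. By these deviations not every library correlated best with its own number. A replicate block gave 1371 calls and kept the call of all 6 genes. The depth of each library is unknown, and values under 1 RPKM rest on few rounding steps of 0.1.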
